A study of Mus musculus with 6 samples.

Results

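The interferon regulatory factors are a family of transcription factors, and 8 of their genes (Irf1, Irf2, Irf3, Irf4, Irf5, Irf7, Irf8 and Irf9) were followed in microglia of lupus-prone and control mice. They were picked by name from a count table of 55401 Ensembl genes, and all 8 were found in it through the symbols of GENCODE M21. RNA was sequenced from 3 libraries of each strain. MRL/lpr mice carry the Fas lpr mutation on the MRL background and develop a lupus-like autoimmune disease. MRL/mpj mice share that background with intact Fas and served as controls. All mice were 6 weeks old and untreated, and their sex is described as female in the study's methods. Cells were released from perfused brains with collagenase and DNase, enriched on Percoll and selected on magnetic columns for CD11b, a surface protein of microglia that monocytes, neutrophils and other macrophages also carry. The study describes 3 mice of each strain for this sequencing, while the labels do not tie a library to an animal. If the libraries did not come from separate animals, p-values measure only technical spread. The comparison of the strains addresses which regulators of microglial activation differ in lupus mice.

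Interferon regulatory factors bind DNA through a conserved N-terminal domain and recognize variants of the interferon-stimulated response element (ISRE). IRF3, IRF5 and IRF7 wait in the cytoplasm and enter the nucleus once kinases downstream of Toll-like receptors, RIG-I-like receptors or STING phosphorylate them, and IRF3 and IRF7 then switch on type I interferon genes. Secreted interferon acts on its receptor and assembles ISGF3, a complex with STAT2 and IRF9 among its subunits that drives interferon-stimulated genes, Irf7 among them. IRF1 is induced by interferon gamma and activates genes of antigen presentation, and IRF2 can occupy the same sites and repress them. IRF8 and IRF4 pair with the ETS factor PU.1 on composite elements. IRF8 is required for microglial development, and IRF4 is best known from B cells, plasma cells and some dendritic cells.

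Upstream sequences of 4 of these genes are given: those of the 3 members with motif matches (Irf1, Irf2 and Irf8) and that of Irf7, the member with the largest strain difference, which had none. RefSeq start-site windows on GRCm38.p6, from 250 bases before the start to 50 bases after it, were found for 8 of 8 genes and numbered 11. They were searched on both strands for an ISRE core (GAAA, any 2 bases, GAAA), a GAS element, which STAT dimers bind (TTC, any 3 bases, GAA), and an ETS-IRF composite (GGAA, any 2 bases, GAAA). Only bases outside the gene as GENCODE draws it are printed, 5′ to 3′ on the gene's own strand, with matches in capitals.
Irf1, chr11:53769764-53770013, plus strand: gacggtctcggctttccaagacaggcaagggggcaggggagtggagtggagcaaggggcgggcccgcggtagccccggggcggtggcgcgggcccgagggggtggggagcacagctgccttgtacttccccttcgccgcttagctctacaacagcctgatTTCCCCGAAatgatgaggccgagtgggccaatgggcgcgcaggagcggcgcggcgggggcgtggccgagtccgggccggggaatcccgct
Irf2, chr8:46739495-46739731, plus strand: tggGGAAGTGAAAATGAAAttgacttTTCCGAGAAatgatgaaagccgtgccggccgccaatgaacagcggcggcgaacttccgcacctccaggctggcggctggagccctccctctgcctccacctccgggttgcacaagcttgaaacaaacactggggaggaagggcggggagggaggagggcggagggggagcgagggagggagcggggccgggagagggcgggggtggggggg
Irf7, chr7:141266482-141266674, minus strand: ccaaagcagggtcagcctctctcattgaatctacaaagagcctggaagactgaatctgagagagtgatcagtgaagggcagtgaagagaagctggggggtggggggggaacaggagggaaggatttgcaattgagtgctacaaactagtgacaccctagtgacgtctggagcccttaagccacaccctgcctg
Irf8, chr8:120736108-120736357, plus strand: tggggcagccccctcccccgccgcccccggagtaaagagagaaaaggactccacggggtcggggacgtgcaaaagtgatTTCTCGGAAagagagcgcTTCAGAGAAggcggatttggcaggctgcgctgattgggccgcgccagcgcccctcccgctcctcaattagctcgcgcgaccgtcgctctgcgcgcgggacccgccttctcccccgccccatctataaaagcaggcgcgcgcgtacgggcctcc
Irf1 had 1 GAS match, which began 90 bases before the start. Irf8 had 2 GAS matches, at -171 and -153. Irf2 was the only member with an ISRE match, at -241, and its composite match at -247 overlapped it, with a GAS match at -224. No window of Irf3, Irf4, Irf5, Irf7 or Irf9 held any of these letters. Of 32851 windows of all genes, 8.3% held the GAS letters, 3.44% those of the ISRE core and 2.72% those of the composite. These matches are descriptions of sequence and not measured binding.

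Library totals lay between 45481609 and 48199739 counts for MRL/lpr and between 47826322 and 49846634 for MRL/mpj. Mitochondrial genes took 3.06% to 3.49% of counts in MRL/lpr and 5.84% to 6.38% in MRL/mpj, and a single noncoding locus, CT010467.1, took 6.38% in MRL/lpr replicate 3. Xist had 8886 to 11319 counts in MRL/lpr and 27 to 38 in MRL/mpj, while 4 Y-linked genes together had 8408 to 11783 counts in MRL/lpr and 13155 to 15046 in MRL/mpj. The MRL/mpj libraries thus went against the stated sex and the MRL/lpr libraries held transcripts of both kinds. Strain and sex of the source mice therefore cannot be told apart in any comparison here. Whether each MRL/lpr library held RNA of a single animal was not tested, so n counts libraries and not animals. All 10 microglial markers were detected, with summed CPM (counts scaled to a common library size by TMM) of 22376 to 25604 in MRL/lpr and 26780 to 27364 in MRL/mpj, and 3 of them were lower in MRL/lpr. Markers of T and NK cells were low in every library. The 7 T cell markers summed to 16.4 to 24.6 CPM in MRL/lpr and 4.44 to 4.77 in MRL/mpj, with 6 of 7 higher in edgeR's test, and the 5 NK cell markers to 11.3 to 11.9 and 3.12 to 4.06, with 3 of 5 higher. Of 6 monocyte markers 3 were higher and 1 lower (summed CPM 69.7 to 80.7 against 75.8 to 83.3). The lower one, Chil3, made up much of the MRL/mpj sum, with a mean of 48.5 CPM there and 16.1 in MRL/lpr. The median log2 fold change of the 6 was 1.31, with 4 of 6 positive. Of 6 neutrophil markers 2 were higher (541 to 626 against 424 to 484), and of 6 border macrophage markers 2 were lower (50.6 to 52.1 against 54.9 to 63.4). Markers of astrocytes (1 of 5), oligodendrocytes (2 of 5) and neurons (2 of 5) were lower, and 1 of 4 endothelial markers was higher. Beside these and later marker counts, 11.1% of all 19554 tested genes were called higher and 9.06% lower. The part of these cells in the results below was not tested. In bulk RNA, a change in the number of cells of a type and a change in RNA per cell cannot be told apart.

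Irf7 and Irf9 were higher in microglia from MRL/lpr mice, and no member was lower. All 8 genes passed the filter on low counts, and none of them depended on it, because the lowest count of any member in any library was 308. The 2 increases compare with 11.1% of the 19554 tested genes called higher and 9.06% called lower at an adjusted p under 0.05 in the quasi-likelihood test of edgeR, adjusted over all of them (20.2% in both directions). Irf7 alone also reached the study's second criterion, a log2 fold change of 1 in size, as did 4.67% of tested genes upward and 3.66% downward. The median log2 fold change of the 8 genes was 0.23, against -0.01 over all tested genes. The libraries of the strains did not overlap in 3 members, higher for Irf7 and Irf9 and lower for Irf4, while 19.6% of tested genes were separated upward and 19.4% downward (39% in all).

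**Figure D1:**
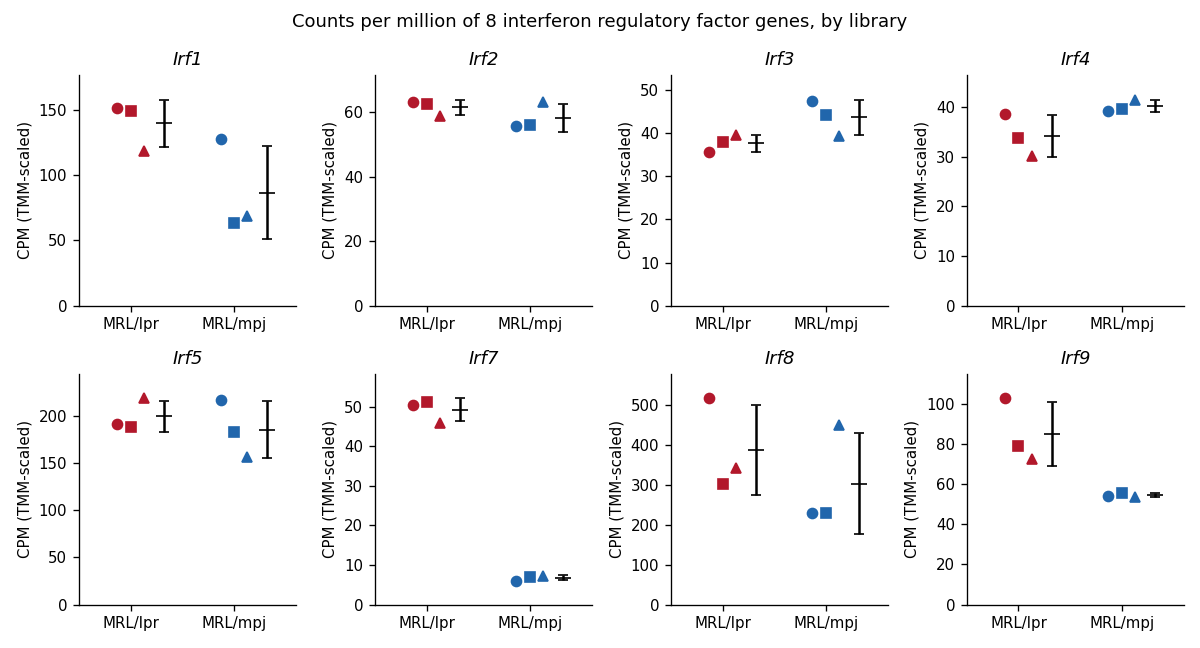
CPM (TMM-scaled, linear axis from 0) of each interferon regulatory factor gene in the 3 MRL/lpr and 3 MRL/mpj libraries. Circles, squares and triangles are replicates 1, 2 and 3, and the bar beside them is the mean with the SD. Irf7 and Irf9 are separated between strains, while single libraries of Irf1 and Irf8 stand far above the others of their strain.

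Irf7 encodes the interferon-inducible factor that amplifies type I interferon production. It lies on chromosome 7 (141262706 to 141266481, minus strand, GRCm38). Its counts were 2375, 2410 and 1916 in the MRL/lpr libraries and 308, 349 and 379 in the MRL/mpj libraries. Each MRL/lpr library therefore stood far above each MRL/mpj library, with little spread within a strain. The means were 49.2 ± 2.91 CPM (SD, n = 3) and 6.75 ± 0.675 CPM (SD, n = 3). The change was 7.28-fold (95% interval 6.11 to 8.68), a log2 fold change of 2.86 with a standard error of 0.11 (edgeR adjusted p = 4.66e-07). By log2 fold change Irf7 ranked 220 from the top among the tested genes. It shares 45 exonic bases with Phrf1 on the opposite strand, and Phrf1 had a log2 fold change of 0.13 (edgeR adjusted p = 0.555).

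The genes whose profile over the 6 libraries lay closest to that of Irf7 were sought among 11114 genes with a mean of at least 5 CPM, by the root mean square difference of mean-centred log2 CPM. Lrba was nearest, at 0.039, followed by Msh5 at 0.058 and Bcl2a1a at 0.087. Lrba ranged from 236 to 266 CPM in MRL/lpr and from 34.7 to 41.0 CPM in MRL/mpj. Because they were picked by this measure, all 3 necessarily shared with Irf7 a large strain difference and a small spread within each strain. Bcl2a1a has near-identical paralogs, so its counts are uncertain.

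Irf9 encodes the DNA-binding subunit of ISGF3. It lies on chromosome 14 (55603571 to 55610030, plus strand). Its counts were 4831, 3728 and 3033 in MRL/lpr and 2770, 2775 and 2797 in MRL/mpj. The control libraries were nearly identical, and the lupus libraries were spread above them. The means were 84.8 ± 15.9 CPM (SD, n = 3) and 54.4 ± 0.972 CPM (SD, n = 3). The increase was 1.56-fold (95% interval 1.29 to 1.89), a log2 fold change of 0.64 with a standard error of 0.12 (edgeR adjusted p = 0.00519). The intervals of Irf9 and Irf7 did not overlap. Irf9 shares 123 exonic bases with Rnf31 on the same strand, a gene of the linear ubiquitin ligase complex that itself had a log2 fold change of 0.42 (edgeR adjusted p = 0.0176), so some reads of these neighbours could have been assigned to either.

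Irf1 and Irf2 form the classical activator and repressor pair on shared response elements. Irf1 (chromosome 11, 53770014 to 53778374, plus strand) had 7118, 7020 and 4967 counts in MRL/lpr and 6555, 3163 and 3567 counts in MRL/mpj. MRL/mpj replicate 1 lay among the lupus libraries, and the other control libraries lay well below them. The log2 fold change was 0.69 (standard error 0.30, 95% interval -0.07 to 1.46, edgeR adjusted p = 0.194), so no strain difference was called with all libraries. Without MRL/mpj replicate 1 it was 1.08, with an edgeR adjusted p of 0.000993. In CPM, Irf1 in that library was 1.94 times the mean of the other control libraries, and only 51 of 11122 genes with a mean of at least 5 CPM, or 0.459%, were raised as far there.

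Over 20 textbook IRF1 targets, the median log2 difference between that library and the mean of the other controls was 0.06, with 13 of 20 above 0. Over all genes compared it was -0.01. On the opposite strand, Gm17334 shares 135 exonic bases with Irf1. Its counts were 2131, 2079 and 1540 in MRL/lpr and 1301, 1236 and 1295 in MRL/mpj, so it was not raised in MRL/mpj replicate 1. Gm17334 was itself higher in MRL/lpr, with a log2 fold change of 0.75 (standard error 0.10, edgeR adjusted p = 0.000659).

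Irf2 (chromosome 8, 46739732 to 46847458, plus strand) had 2967, 2946 and 2456 counts in MRL/lpr and 2854, 2795 and 3284 counts in MRL/mpj. The strains overlapped, and the log2 fold change was 0.08 (95% interval -0.11 to 0.27, edgeR adjusted p = 0.579). The interval leaves room for a change of up to 1.20-fold upward. With scaling by library size only, which moved the median of all genes to -0.13, the sign of Irf2 turned (-0.04).

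Irf8 and Irf4 are the partners of PU.1. Irf8 (chromosome 8, 120736358 to 120756694, plus strand) had 24250, 14245 and 14248 counts in MRL/lpr and 11832, 11402 and 23334 counts in MRL/mpj. A single library in each strain, MRL/lpr replicate 1 and MRL/mpj replicate 3, stood above the rest. In CPM they were 1.6 times and 1.96 times the mean of the other libraries of their strain. Of the 11122 genes with a mean of at least 5 CPM, 0.935% were raised as far in MRL/lpr replicate 1 and 0.423% in MRL/mpj replicate 3. With all libraries the log2 fold change of Irf8 was 0.35 (standard error 0.37, 95% interval -0.62 to 1.33, edgeR adjusted p = 0.602), and such an interval includes changes from 0.65-fold to 2.51-fold. Leaving out MRL/lpr replicate 1 gave 0.09 and leaving out MRL/mpj replicate 3 gave 0.75, neither called.

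Among 8 genes described as IRF8 targets in mononuclear phagocytes, the median log2 difference from the other libraries of the strain was 0.13 in MRL/lpr replicate 1, with 6 of 8 above 0, and 0.0039 in MRL/mpj replicate 3, with 5 of 8 above 0. Over all genes compared the medians were 0.00047 and 0.0065. Id2 was highest of all libraries in MRL/lpr replicate 1, at 631 CPM, and the other lupus libraries had 406 and 295 CPM. It was lowest of all libraries in MRL/mpj replicate 3, at 212 CPM, and MRL/mpj replicates 1 and 2 had 356 and 226 CPM. Another of the 8 targets, the fractalkine receptor gene Cx3cr1, had its own single high library. There, MRL/lpr replicate 2 had 132706 counts and the remaining lupus libraries 10645 and 10334. Spi1, which encodes PU.1, had 8390 to 9281 counts in the 6 libraries and a log2 fold change of 0.17 (edgeR adjusted p = 0.212).

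Irf4 (chromosome 13, 30749226 to 30766976, plus strand) had 1810, 1586 and 1263 counts in MRL/lpr and 2015, 1983 and 2159 counts in MRL/mpj. In CPM the lupus libraries lay just below the controls without overlap, at 38.5, 33.7 and 30.2 against 39.2, 39.7 and 41.5. The log2 fold change was -0.23 (standard error 0.10, unadjusted p = 0.0498, edgeR adjusted p = 0.157), and the difference was not called. Markers of the cells in which IRF4 is prominent were not called lower. The 5 B cell markers tested summed to 8.65 to 10.7 CPM in MRL/lpr and 8.73 to 9.84 CPM in MRL/mpj with none called, and the defining marker Cr2 had 0 counts in every library. Cd79b made up most of these sums (log2 fold change -0.30), and the median of the 5 was 1.57, with Cd79a and Ms4a1 separated upward at 1.57 and 2.34. The 7 plasma cell markers summed to 144 to 153 CPM against 61.3 to 68.1 CPM, with 3 higher, among them Igkc and Jchain. Their median was 0.24, and 5 of the 7 had a positive log2 fold change. Tnfrsf17 was separated downward at -0.39 and Sdc1 had -0.04, neither of them called. The 9 dendritic cell markers summed to 46.6 to 50.3 CPM against 31.7 to 37.5 CPM, with 2 higher (Itgae and Ccr7) and a median of 0.36. Clec9a and Flt3, markers of conventional dendritic cells, were separated downward at -1.56 and -0.77, and Clec10a had -0.69, none of them called. The part of these cells in the level of Irf4 was not tested.

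Irf3 and Irf5 encode the factors that are present before stimulation and are activated by phosphorylation. Irf3 (chromosome 7, 44997648 to 45002848, plus strand) had 1671, 1787 and 1649 counts in MRL/lpr and 2435, 2213 and 2043 counts in MRL/mpj. In CPM the highest lupus library, at 39.5, only just exceeded the lowest control, at 39.3. The log2 fold change was -0.21 (standard error 0.10, edgeR adjusted p = 0.166), and with scaling by library size only it was -0.34 (edgeR adjusted p = 0.0331). Irf3 shares 88 exonic bases with the opposite-strand gene Bcl2l12, whose log2 fold change was -0.03 (edgeR adjusted p = 0.925).

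Irf5, a mediator of inflammatory cytokine induction downstream of MyD88 and a locus linked to human lupus by genetics, was near the same level in both strains. It lies on chromosome 6 (29526625 to 29541871, plus strand). Its counts were 9035, 8881 and 9154 in MRL/lpr and 11178, 9162 and 8148 in MRL/mpj, and the strains overlapped. The log2 fold change was 0.11 (95% interval -0.16 to 0.37, edgeR adjusted p = 0.600), an interval of 0.896-fold to 1.29-fold. Its sign turned with scaling by library size only (-0.02) and without MRL/mpj replicate 3 (-0.0044). Irf5 shares 411 exonic bases with Tnpo3 on the opposite strand, the longest overlap of any member, and Tnpo3 had a log2 fold change of 0.11 (edgeR adjusted p = 0.617).

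**Figure D2:**
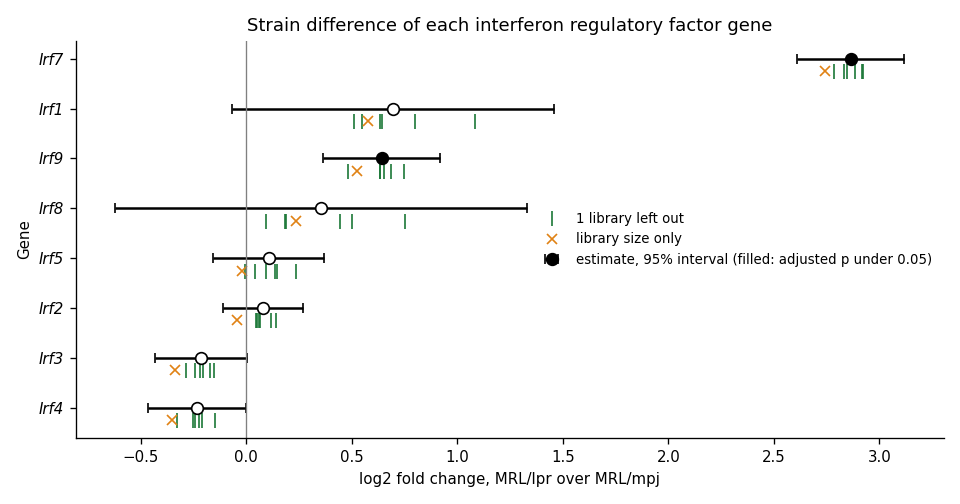
Log2 fold change of each gene between MRL/lpr and MRL/mpj with its 95% interval (edgeR), ordered by size, with filled circles for an adjusted p under 0.05. Green ticks give the value with 1 library left out and orange crosses that with scaling by library size only. Irf7 lies apart from the others at 2.86, and the values of Irf1 and Irf8 move most when a library is left out.

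Levels were compared between genes per length, with the deposited FPKM values. The order therefore depends on the length assigned to each gene. Merged over its transcripts, Irf7 is annotated as 1 exonic block of 3776 bases that spans the whole gene. Irf5 and Irf8 led in both strains. In MRL/mpj the order was Irf5 (59.5 ± 9.76 FPKM, SD, n = 3), Irf8 (39.9 ± 16.7), Irf1 (20.2 ± 8.34), Irf3 (11.8 ± 1.11), Irf9 (9.38 ± 0.173), Irf4 (7.61 ± 0.231), Irf2 (7.31 ± 0.538) and Irf7 (1.64 ± 0.163). The ranges of Irf5 and Irf8 overlapped, as did those of Irf4 and Irf2, and the other neighbours in this order were separated. In MRL/lpr the order was Irf5 (58.8 ± 2.96 FPKM), Irf8 (47.0 ± 14.6), Irf1 (30.15 ± 4.8), Irf9 (13.5 ± 2.83), Irf7 (11.1 ± 1.0), Irf3 (9.33 ± 0.318), Irf2 (7.11 ± 0.495) and Irf4 (5.96 ± 0.885). There the neighbours Irf5 and Irf8, Irf9 and Irf7, and Irf2 and Irf4 overlapped. Irf7 thus moved from the lowest of the 8 in MRL/mpj, where it made up 0.871% to 1.20% of their summed FPKM, to the middle of the order in MRL/lpr, where it made up 5.65% to 6.77%.

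**Figure D3:**
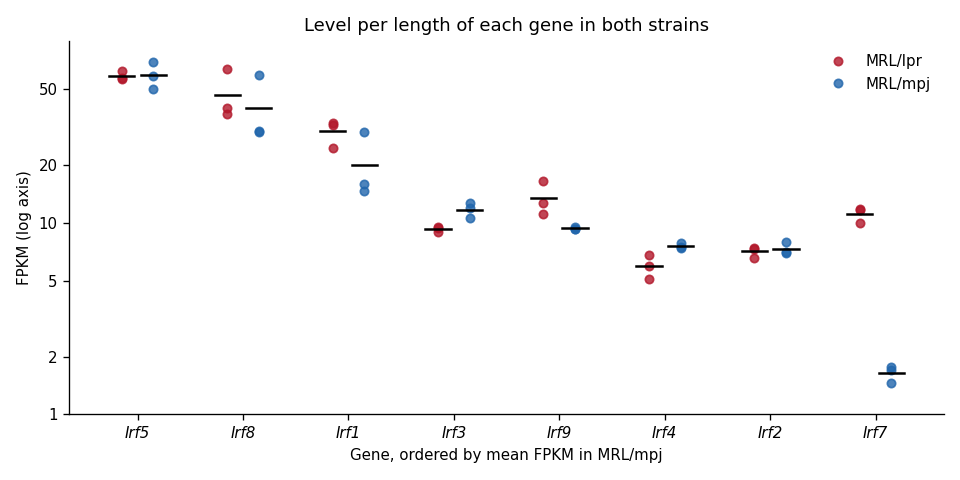
Deposited FPKM (log axis) of each gene in the 3 libraries of each strain, with black bars for the means and genes ordered by their mean in MRL/mpj. Irf7 is the lowest of the 8 in MRL/mpj at 1.64 FPKM and lies between Irf9 and Irf3 in MRL/lpr at 11.1 FPKM.

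Ratios within a library do not depend on its scaling, and 5 were tested between the strains, of which 4 are described, with two-sided exact permutation tests, in which 3 libraries against 3 can give no p below 0.1. The log2 ratio of Irf7 to its constitutive paralog Irf3 was 0.51, 0.43 and 0.22 in MRL/lpr and -2.98, -2.66 and -2.43 in MRL/mpj. The interferon-inducible gene exceeded the constitutive gene in each lupus library and was far below it in each control (exact permutation p = 0.1, 0.167 after Benjamini-Hochberg adjustment over the 5 ratios). The ratio of Irf9 to its ISGF3 partner Stat2 went the other way. It was -0.32 ± 0.17 (SD, n = 3) in MRL/lpr and 0.27 ± 0.26 (SD, n = 3) in MRL/mpj, without overlap (exact permutation p = 0.1, adjusted 0.167). The ratios of Irf1 to Irf2 and of Irf8 to Irf4 overlapped between strains, with differences of 0.68 and 0.63 (exact permutation p = 0.2, adjusted 0.2, for each).

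**Figure D4:**
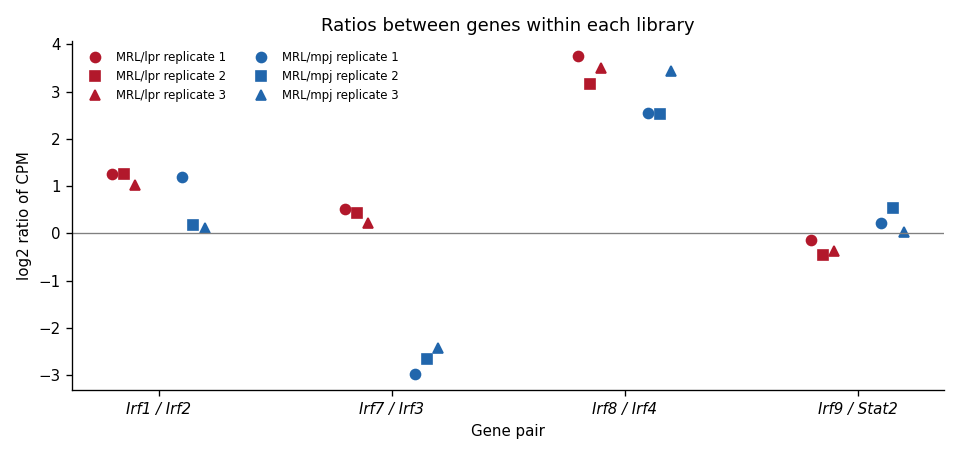
Log2 ratio of CPM of 4 gene combinations in each library, with MRL/lpr in red and MRL/mpj in blue and a symbol for each replicate number. Irf7 to Irf3 and Irf9 to Stat2 are separated between strains, and Irf1 to Irf2 and Irf8 to Irf4 overlap.

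Stat2, the ISGF3 subunit that binds IRF9, was higher in MRL/lpr as well, with 5284, 5109 and 3954 counts against 2361, 1906 and 2731. On the log2 scale it rose by 1.21 (standard error 0.12, edgeR adjusted p = 0.000126). Jak1 and Tyk2, the kinases bound to the type I interferon receptor, rose by 0.53 and 0.28 (edgeR adjusted p = 0.000234 and 0.0144). Ifngr1, the ligand-binding chain of the interferon gamma receptor, fell by 0.76 (edgeR adjusted p = 5.22e-05), from 19719 to 20866 counts in MRL/mpj to 9204 to 11825 in MRL/lpr. Ifnar1, Ifnar2, Ifngr2 and Jak2 had log2 fold changes of -0.09, 0.07, 0.01 and 0.09 and were not called.

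Transcripts of most interferon genes were scarce. Of 21 interferon genes in the list, 15 had 0 counts in every library, and 2 had enough counts to be tested. A count of 0 does not exclude expression at a low level. Ifnb1 had 380, 481 and 279 counts in MRL/lpr and 597, 658 and 717 counts in MRL/mpj. The lupus libraries lay below the controls, with a log2 fold change of -0.63 (standard error 0.18, edgeR adjusted p = 0.0336). This call was lost when any library other than MRL/lpr replicate 2 was left out. Ifng had 64, 71 and 26 counts against 5, 26 and 31, with a log2 fold change of 1.52 (edgeR adjusted p = 0.159).

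Of 26 sensors, adaptors and kinases that lead to IRF3, IRF5 and IRF7, 7 were higher, 1 was lower and 18 were not called. Their median log2 fold change was 0.27. Over all tested genes 11.1% were called higher and 9.06% lower, and the lists that follow have the same shares beside them. Zbp1, a sensor of Z-form nucleic acid, rose most, from 50, 64 and 72 counts in MRL/mpj to 947, 1032 and 856 in MRL/lpr (log2 fold change 4.10, standard error 0.17, edgeR adjusted p = 8.41e-07). Tlr8 rose by 1.77 on low counts (23 to 46 in MRL/mpj, edgeR adjusted p = 0.0177). Ddx58, which encodes the RNA sensor RIG-I, rose by 1.21 and Ifih1, which encodes MDA5, by 0.54 (edgeR adjusted p = 7.32e-05 and 0.00511). The adaptors of TLR3 and TLR4 moved apart, since Ticam1 (TRIF) rose by 0.74 and Ticam2 (TRAM) fell by 0.80 (edgeR adjusted p = 0.00125 and 0.000277). The kinases that phosphorylate IRF3 and IRF7 were not called, with log2 fold changes of 0.04 for Tbk1 and 0.60 for Ikbke. Tasl, listed under 5430427O19Rik and known as the adaptor that recruits IRF5 to SLC15A4, rose by 0.53 (edgeR adjusted p = 0.0322), while Slc15a4 itself had 0.27 (edgeR adjusted p = 0.0942).

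Among 10 DNA-binding partners and IRF2-binding proteins, 4 were higher and none was lower, with a median of 0.26. Ikzf3 rose by 1.54 (edgeR adjusted p = 0.0407) on 17 to 103 counts and Batf, an AP-1 partner of IRF4, by 0.84 (edgeR adjusted p = 0.00166). The IRF2-binding corepressor genes Irf2bp2 and Irf2bpl rose by 0.58 and 0.39 (edgeR adjusted p = 0.000200 and 0.00218), while Irf2bp1 had a log2 fold change of 0.04 and was not called.

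Genes known as targets of ISGF3, IRF3 and IRF7 were mostly higher, with 18 of 20 called higher, none lower and a median log2 fold change of 1.81, beside the 11.1% of all tested genes called higher. Ifi44 and Ifit3 rose by 5.20 and 3.30 (edgeR adjusted p = 2.93e-06 and 1.77e-07). Cxcl10, a chemokine gene induced by both types of interferon, had 3793, 4021 and 2785 counts in MRL/lpr and 3894, 3927 and 3702 in MRL/mpj, a log2 fold change of 0.05 that was not called. Ifit2 was not called either, since MRL/lpr replicate 3 had 293 counts where the remaining lupus libraries had 10474 and 10618. Ifih1 and Ddx58 belong to this list as well as to that of the sensors.

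Of 20 IRF1 targets of the interferon gamma response, 15 were higher and none was lower, with a median of 0.79. Gbp3, a guanylate-binding protein gene, rose by 2.98 (edgeR adjusted p = 1.06e-07), and Cxcl9 rose by 2.58 from at most 25 counts in MRL/mpj (edgeR adjusted p = 0.00141). B2m and Tap1, which serve MHC class I presentation, rose by 0.76 and 0.97 (edgeR adjusted p = 2.41e-05 and 0.000189). Socs1, Casp1, Il15, Tapbp and Gbp5 were not called, with log2 fold changes between -0.12 and 0.58. The summed CPM of the 20 genes was 2365 to 2411 in MRL/lpr and 1290 to 1402 in MRL/mpj, and B2m alone made up 1304 to 1417 and 775 to 830 of it.

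The inflammatory targets of IRF5 were mixed, with 3 of 6 higher, 1 lower and a median of 0.56. Il6 rose by 2.29 and Tnf by 1.30 on the log2 scale (edgeR adjusted p = 6.90e-05 and 1.10e-06), and Nos2 fell by 1.55 (edgeR adjusted p = 0.00402). Il12b, a target that IRF5 and IRF8 share, had 411 to 647 counts in the 6 libraries and was not called. Of 6 IRF4 targets tested, Bcl6 rose by 0.77, Chil3 fell by 1.59 and Mrc1 fell by 0.39 (edgeR adjusted p = 0.000140, 5.09e-05 and 0.0443), with a median of 0.23 over the list. Only 1 decrease was called when any library was left out. Mrc1 is also a marker of border macrophages. Of 8 IRF8 targets, the phagocyte oxidase gene Cybb rose by 1.16 and Klf4 by 0.87 (edgeR adjusted p = 1.08e-05 and 0.000152), Cst3 fell by 0.40 (edgeR adjusted p = 0.00296) and the other 5 were not called, with a median of 0.41.

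**Figure D5:**
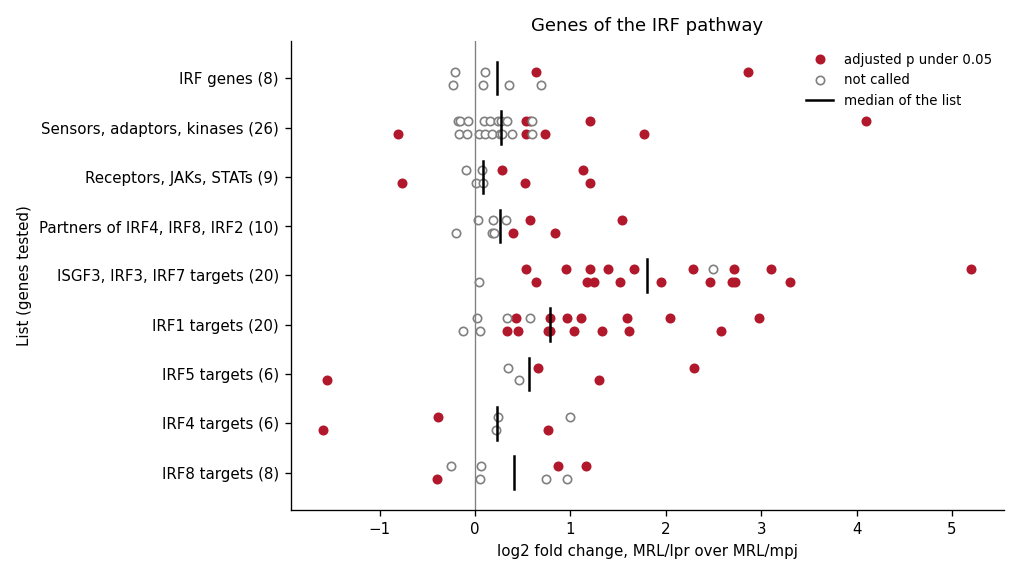
Log2 fold change between MRL/lpr and MRL/mpj of each tested gene in 9 lists, with filled points for an adjusted p under 0.05 (edgeR) and a black bar for the median of the list. The targets of ISGF3, IRF3 and IRF7 have a median of 1.81, those of IRF1 0.79 and the interferon regulatory factors 0.23.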

How the data were processed

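Microglial RNA from 3 MRL/lpr and 3 MRL/mpj libraries was analysed. The authors trimmed reads with cutadapt (1.9.3) and aligned them with HISAT2 (2.0.4), and the submitters' processing notes name GRCm38 and Cuffdiff 2.2.1. The tool that counted reads, its strand setting and the annotation release are not given in the sources used here. The authors deposited unnormalized counts for each gene and, for 30602 genes, FPKM values. Genes with 4 counts outnumbered those with 3 or 5 (1234 against 377 and 254 in MRL/lpr replicate 1), so a low count may stand for fewer fragments.

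Counts were filtered with filterByExpr (minimum 10, total 15), scaled by TMM and tested with edgeR 4.0.16 (R 4.3.3, robust quasi-likelihood fit, no covariate), with Benjamini-Hochberg adjustment over 19554 genes. Standard errors and 95% intervals derive from the quasi-likelihood F statistic. DESeq2 1.42.0 and limma 3.58.1 served as alternatives. Steps were tested on simulated data. Symbols and positions came from GENCODE M21, which matched 55141 of 55401 identifiers. Members and lists were chosen with earlier results of these data known. In each list the 2 largest called increases and decreases with at least 10 counts in each library are named, the genes of the receptor list, and further genes whose values a statement needs. Some items that this rule names are not reported here. Replicate numbers were not used to pair the libraries in the main test.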

Additional observations from a re-analysis of the deposited data

How the results depend on the processing

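Over 17 alternatives, Irf7 kept its direction and call (log2 fold change 2.2 to 2.92), Irf9 lost its call only in the test against a log2 fold change of 1 (range 0.47 to 0.75), and Irf4 and Irf8 were never called. Irf1 became called without MRL/mpj replicate 1, and Irf3 with library size only and with limma on FPKM (-0.30, adjusted p = 0.0427). Irf2 reversed to -0.042 with library size only and -0.035 with limma on FPKM. Irf5 reversed to -0.02 and -0.0057 under these settings, and its values with 1 library left out ran from -0.0044 to 0.23. The test against a log2 fold change of 1 (edgeR's glmTreat) called 379 genes higher and 237 lower. It called 1 member, 1 sensor or adaptor, 11 targets of ISGF3, IRF3 and IRF7, 5 IRF1 targets and 2 IRF5 targets higher. Downward it called 1 IRF4 target. It called 0 receptor and STAT genes in either direction, 0 partners, IRF4 targets and IRF8 targets higher, and 0 sensors, interferons, IRF5 targets and IRF8 targets lower. Library size only called 2790 genes, 1 member and 2 sensors lower. IRF8 targets called lower numbered 2 with DESeq2, library size only, no filter, the stricter filter and counts divided by 4. Same-numbered libraries of the strains correlated at -0.041, -0.020 and -0.033, and differently numbered ones at 0.0025 to 0.033. They were thus no more alike by this measure, which cannot exclude a pairing. With the replicate number as a block, Irf1 was called (0.76, adjusted p = 0.0485), members called higher numbered 3, interferons lower 0 and IRF4 targets lower 1. With 1 library left out, calls ran from 2 to 3 members higher, 1626 to 2363 genes higher and 1177 (without MRL/mpj replicate 1) to 1971 lower, 1 to 2 sensors lower, 0 to 1 interferons lower, 1 to 2 IRF4 targets higher and 1 lower, and 1 to 2 IRF8 targets lower. The causes of these changes were not tested. With 3 libraries a strain, Irf1 and Irf8 have intervals too wide to bound a change closely.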
